A study of Mesocricetus auratus with 6 samples.

Results

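The genes described here are those of innate antiviral sensing and the interferon response, measured in BHK21 cells that had been given a plasmid. A fixed list of 59 names, 2 of them second names of a listed gene (Rigi for Ddx58 and Tmem173 for Sting1), named 57 genes, and 50 of these were matched by hamster symbol to a row among the 16078 genes measured. The other 7 were not analysed here: Ifit1, Mx2, Oas1, Ifi27 and Ifi44 matched no symbol in the RefSeq gene table, and Cgas and Ifit3 matched a Gene ID there but none of the rows used. Shares of members given here therefore say nothing of these 7, the DNA sensor gene Cgas among them. All 16078 rows were above 0 FPKM in at least 1 library, so no gene at 0 in all 6 libraries has a row. Whether Cgas and Ifit3 were such genes was not tested. BHK21 is a fibroblast-like line from baby hamster kidney (the labels give kidney as the tissue and an age of one day) that is widely used to grow viruses. One group of 3 libraries came from cells transfected with STYK1/NOK (STYK1 1 to 3), which encodes a receptor-like protein related to tyrosine kinases, and the other from cells transfected with the empty plasmid pCMV-Myc (vector 1 to 3), so every library followed a plasmid transfection and none came from untransfected cells. RNA was taken at 48 after transfection, a time for which the labels give no unit. Whether the libraries within a group stem from different cultures is not in the labels, and every p-value therefore reflects the spread among these 6 libraries alone, which may be technical.

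Cells detect viral nucleic acid with cytosolic RNA helicases, with the DNA sensor cGAS and its partner STING, and with Toll-like receptors on the surface and in endosomes. Adaptor proteins pass the signal to the kinases TBK1 and IKK-epsilon, which activate the transcription factors IRF3 and IRF7 and so turn on interferon genes. Secreted interferon binds receptors on the same or neighbouring cells, and JAK kinases then activate transcription factors that include STAT2 with IRF9, which switch on the interferon-stimulated genes. Many of these are hardly transcribed in resting cells, and transfected DNA is itself a known trigger of the DNA-sensing arm.

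Values are in FPKM (fragments scaled to transcript length and to the mapped fragments of the library), which is per length and so allows levels to be ranked between genes. A gene was counted as present when it reached 1 FPKM in all 3 vector libraries. Of the 50 member genes, 39 (78.0%) were present, 10 were low, meaning above 0 in some vector library but not at 1 FPKM in all 3, and 1 was listed at 0 in all 3. Over all 16078 genes the share present was 68.2%. The plot of levels in each library shows the split by role: receptors, JAK kinases and adaptors stood well above the line at 1 FPKM, while several classical interferon-stimulated genes lay below it, some of them at or next to 0. An FPKM of 0 means only that the gene is listed at 0, since the depth of the libraries is unknown.

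**Figure D1:**
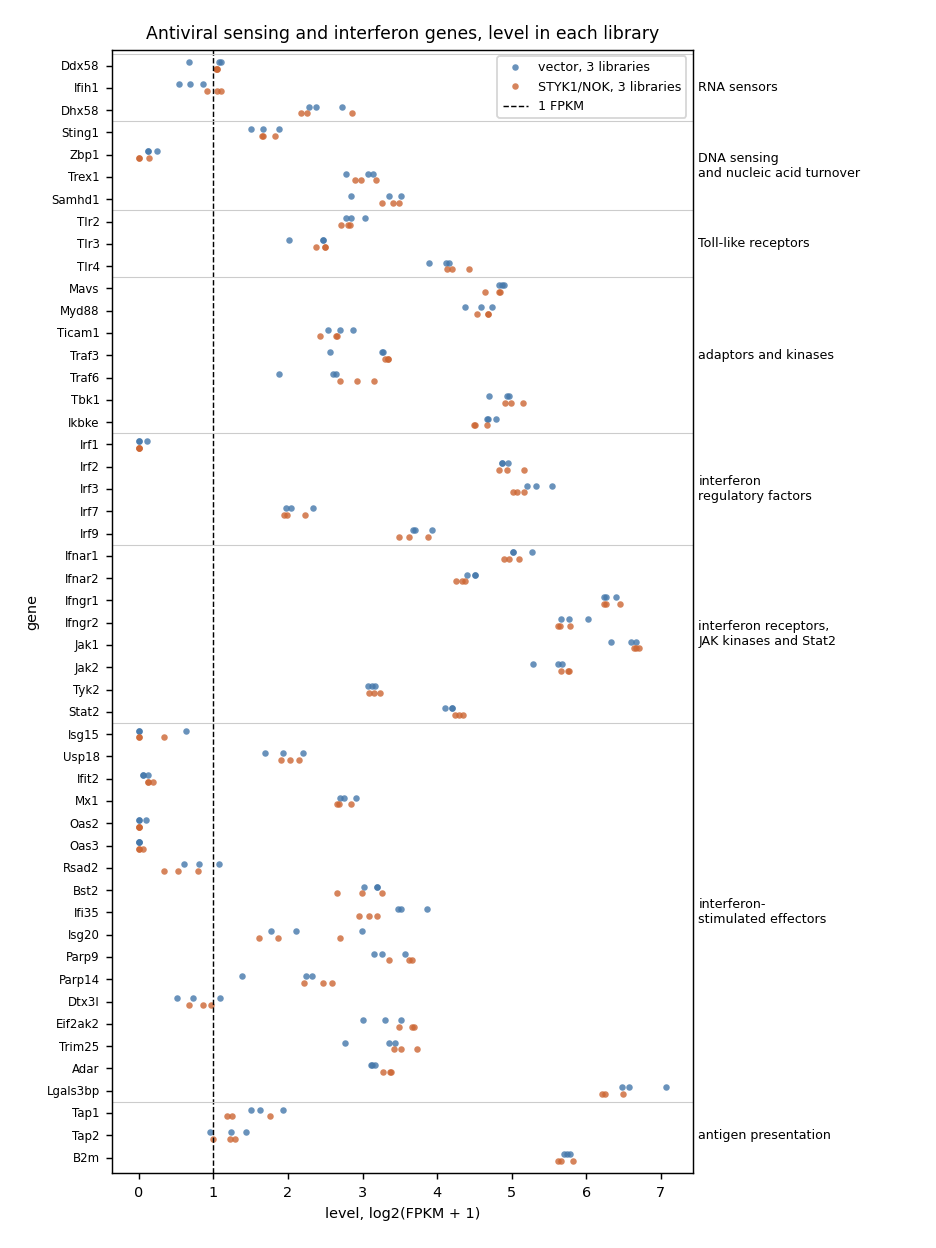
Level of each of the 50 member genes, as log2(FPKM + 1) on the x axis, in the 3 vector libraries (blue) and the 3 STYK1/NOK libraries (orange), with genes grouped by role and a dashed line at 1 FPKM. Jak1, Ifngr1 and Lgals3bp lie farthest right, while Irf1, Ifit2, Oas2, Oas3 and Zbp1 stay below 0.2 FPKM in all 6 libraries.

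Facts of the whole series that touch these genes were as follows. Vector 1 stood apart, with a correlation of 0.963 to 0.976 with the other libraries on log2(FPKM + 1), against 0.988 to 0.993 for the 10 pairs without it. It was the lowest of the 6 libraries for 17 of the 42 member genes that could be tested and the highest for 15, against 36.2% and 37.1% of all tested genes. The hamster gene Styk1 had 1.5, 1.8 and 1.89 FPKM in the vector libraries and 2.04, 2.46 and 2.41 FPKM in the STYK1 libraries, a difference that did not pass the test (limma, adjusted p = 0.470; two-sided exact permutation p = 0.1, the smallest that 3 against 3 can give). The species of the transfected sequence is not given, so whether these values include the transgene is unknown. Of 8 matched fibroblast markers, 4 were present, among them Vim (3915 to 4141 FPKM in the vector libraries), Fn1 and Pdgfra, whereas the collagens Col1a1, Col1a2 and Col3a1 lay between 0.4 and 1.02 FPKM and Thy1 between 0 and 0.18 FPKM in the vector libraries. Kidney epithelial markers summed to 4.07 to 5.92 FPKM in vector and 4.30 to 7.04 FPKM in STYK1 libraries, with 2 of 8 present (Pax2 and Aqp1) and Epcam at 0 in all 3 vector libraries. Of 6 matched leukocyte markers, Cd68 and Csf1r were present, and the list summed to 292 to 354 FPKM in vector and 282 to 299 FPKM in STYK1 libraries, nearly all of it Cd68. The defining leukocyte genes Ptprc, Adgre1 and Itgam did not exceed 0.16 FPKM in any library. Endothelial markers summed to 4.89 to 8.58 FPKM in vector and 6.73 to 9.46 FPKM in STYK1 libraries, nearly all of it Cdh5.

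Of the 3 cytosolic RNA sensors, Ddx58 and Ifih1 were low and Dhx58 was present. Ddx58, the gene for the viral RNA helicase RIG-I (NCBI Gene ID 101838597), had 0.6, 1.15 and 1.11 FPKM in vector 1, 2 and 3, and 1.05, 1.07 and 1.07 FPKM in STYK1 1, 2 and 3. Only vector 1 was below 1 FPKM, so Ddx58 sat on the edge of the level counted as present. Ifih1, the gene for MDA5, a sensor of long double-stranded RNA (Gene ID 101844185), had 0.45, 0.61 and 0.82 FPKM in vector and 1.07, 1.15 and 0.89 FPKM in STYK1 libraries. All 3 STYK1 libraries were above all 3 vector libraries, with a mean FPKM 1.65 times that of vector. The difference in log2(FPKM + 1), a scale that understates changes of low genes, was 0.33 ± 0.16 (SE). This difference did not pass the test (limma, adjusted p = 0.469). Dhx58, which encodes LGP2, a helicase that tunes signalling by the other sensors (Gene ID 101832339), was the most abundant of the 3 at 5.64, 4.21 and 3.88 FPKM in vector and 3.51, 6.28 and 3.76 FPKM in STYK1 libraries. Its highest value of all was in STYK1 2 and the next in vector 1, so the groups overlapped.

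Of the genes for DNA sensing and nucleic acid turnover, 3 of the 4 matched were present and Zbp1 was near 0. Sting1, the endoplasmic reticulum adaptor that receives the signal made by cGAS (Gene ID 101834236), had 2.68, 2.18 and 1.85 FPKM in vector and 2.13, 2.54 and 2.16 FPKM in STYK1 libraries, with overlapping groups. The level of Sting1 placed it below 65.2% of all genes. Zbp1, a sensor of Z-form nucleic acid (Gene ID 101835595), was at 0.09, 0.09 and 0.19 FPKM in vector and at 0, 0.1 and 0 FPKM in STYK1 libraries. Trex1, an exonuclease that clears cytosolic DNA (Gene ID 101826627), measured 7.43, 7.79 and 5.83 FPKM against 8.08, 6.88 and 6.44 FPKM. Samhd1, a hydrolase of deoxynucleotides that restricts retroviruses (Gene ID 101826926), measured 6.22, 10.4 and 9.21 FPKM against 10.2, 8.58 and 9.57 FPKM. For Trex1 and Samhd1 the groups overlapped, and vector 1 was the lowest of the 6 libraries for Samhd1.

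All 3 listed Toll-like receptors were present. Tlr4, the receptor for bacterial lipopolysaccharide (Gene ID 101824088), was the highest, at 13.8, 16.9 and 16.4 FPKM in vector and 17.4, 20.6 and 16.5 FPKM in STYK1 libraries. Tlr2, which recognises bacterial lipoproteins (Gene ID 101838156), had 6.16, 5.86 and 7.2 FPKM in vector and 5.58, 6.01 and 6.13 FPKM in STYK1 libraries. Tlr3, the endosomal receptor for double-stranded RNA (Gene ID 101843286), had 3.05, 4.53 and 4.53 FPKM in vector and 4.64, 4.21 and 4.64 FPKM in STYK1 libraries. In the vector libraries the order Tlr4, Tlr2, Tlr3 held in each library, and the ranges of the 3 genes did not overlap. None of the 3 differed between the groups beyond the spread of the libraries (limma, adjusted p between 0.488 and 0.703), and their groups overlapped.

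The adaptors and kinases that carry the signal from the sensors were all present, 7 of 7. Tbk1, a kinase that phosphorylates IRF3 (Gene ID 101842633), had 24.9, 29.5 and 30.3 FPKM in vector and 30.8, 34.5 and 29.02 FPKM in STYK1 libraries. Mavs, the mitochondrial adaptor of RIG-I and MDA5 (Gene ID 101826955), had 28.8, 28.3 and 27.5 FPKM against 23.9, 27.8 and 27.4 FPKM. Ikbke, the gene for IKK-epsilon (Gene ID 101838877), had 24.7, 26.7 and 24.4 FPKM against 21.5, 21.7 and 24.5 FPKM. In the vector libraries the range of Tbk1 overlapped those of Mavs and Ikbke, while Mavs was above Ikbke in all 3. Myd88, the adaptor of most Toll-like receptors, averaged 22.8 ± 2.87 FPKM in vector (SD, n = 3), and Ticam1, the TRIF adaptor of Tlr3 and Tlr4, averaged 5.54 ± 0.772 FPKM (SD, n = 3). The adaptor Mavs was thus listed at a level far above its own sensors Ddx58 and Ifih1, whose vector means were 0.953 and 0.627 FPKM.

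Both TRAF ubiquitin ligases of the list had all 3 STYK1 libraries above all 3 vector libraries, and neither passed the test. They were the 2 of the 7 adaptors and kinases whose groups did not overlap, against 13.6% of all genes in this direction. Traf6, which acts after Myd88 (Gene ID 101830563), had 2.68, 5.26 and 5.09 FPKM in vector and 7.89, 6.62 and 5.5 FPKM in STYK1 libraries. Its mean was 1.54 times that of vector, a log2 difference of 0.55 ± 0.23 (SE) with an unadjusted p of 0.0397 (limma, adjusted p = 0.469). Without vector 1, the lowest library, the log2 difference of Traf6 was 0.30 ± 0.15 (SE; limma, unadjusted p = 0.0729). Traf3, which links adaptors to Tbk1 (Gene ID 101831388), had 4.93, 8.71 and 8.55 FPKM in vector and 9.18, 8.88 and 9.12 FPKM in STYK1 libraries. With all libraries Traf3 differed by 0.30 ± 0.19 (SE) on the log2 scale, and without vector 1 by 0.06 ± 0.09 (SE; limma, adjusted p = 0.497 and 0.836), so most of the difference came with that 1 library.

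Of the 5 interferon regulatory factors, 4 were present and Irf1 was not. Irf3, the factor activated directly by Tbk1 (Gene ID 101827541), had 45.6, 39.1 and 35.9 FPKM in vector and 31.2, 32.5 and 34.7 FPKM in STYK1 libraries. Every STYK1 library was below every vector library, and the vector mean was 1.23 times the STYK1 mean. For Irf3 the log2 difference came to -0.28 ± 0.11 (SE; limma, unadjusted p of 0.0306, adjusted p = 0.469). Leaving out vector 1 gave -0.19 ± 0.07 (SE; limma, unadjusted p of 0.0367, adjusted p = 0.512). Irf2, a factor that can repress interferon-stimulated promoters (Gene ID 101825379), had 30.04, 28.3 and 28.3 FPKM in vector and 29.7, 35.0 and 27.3 FPKM in STYK1 libraries, with overlapping groups. Irf9, the DNA-binding partner of STAT2 (Gene ID 101826057), had 14.3, 11.8 and 12.01 FPKM against 11.3, 13.8 and 10.2 FPKM, again with overlapping groups. Irf7, the interferon-inducible factor that amplifies interferon production, averaged 3.37 ± 0.616 FPKM with vector and 3.17 ± 0.458 FPKM with STYK1/NOK (SD, n = 3 each). Irf1, itself an early interferon-induced gene (Gene ID 101842858), was listed at 0.08 FPKM in vector 1 and at 0 in the other 5 libraries.

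In the receptor and kinase layer of the pathway 8 of 8 listed members were present, and this layer held most of the high levels. Jak1, the kinase shared by type I and type II interferon receptors (Gene ID 101843653), had 79.2, 100.1 and 95.9 FPKM in vector and 103, 101 and 98.2 FPKM in STYK1 libraries, above all but 6.46% of genes. Ifngr1, the ligand-binding chain of the interferon-gamma receptor (Gene ID 101827289), had 75.7, 74.8 and 83.04 FPKM against 86.5, 75.5 and 74.5 FPKM. Ifngr2, its signalling partner (Gene ID 101828108), had 63.9, 49.5 and 53.7 FPKM against 48.3, 49.3 and 53.9 FPKM. In vector libraries the ranges of Jak1 and Ifngr1 overlapped, while that of Ifngr2 lay below both. Jak2, which pairs with Ifngr2, averaged 45.4 ± 6.45 FPKM with vector and 51.96 ± 2.15 FPKM with STYK1/NOK (SD, n = 3 each). Ifnar1, a chain of the type I interferon receptor, averaged 33.4 ± 3.72 FPKM with vector and 30.8 ± 2.35 FPKM with STYK1/NOK (SD, n = 3 each). Tyk2, the kinase bound to Ifnar1, was the lowest of this layer, at 7.72 ± 0.270 FPKM with vector and 7.92 ± 0.432 FPKM with STYK1/NOK (SD, n = 3 each).

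In the same layer 2 of the 8 genes had groups that did not overlap, 1 lower and 1 higher in STYK1 libraries. Over all genes the share was 23.1%, with 9.44% lower and 13.6% higher. Ifnar2, the other chain of the type I receptor (Gene ID 106021446), had 21.7, 20.1 and 21.8 FPKM in vector and 18.1, 19.2 and 19.7 FPKM in STYK1 libraries, lower in all 3. Stat2, the transcription factor that works with IRF9 (Gene ID 101830537), had 16.3, 17.3 and 17.4 FPKM in vector and 18.7, 19.3 and 17.9 FPKM in STYK1 libraries, higher in all 3. The log2 differences were -0.15 ± 0.09 (SE) for Ifnar2 and 0.12 ± 0.09 (SE) for Stat2 (limma, adjusted p = 0.487 and 0.531). With the libraries scaled to equal FPKM sums the value for Ifnar2 shrank to -0.04 and that for Stat2 grew to 0.23.

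The interferon-stimulated effectors ranged in mean vector level from 0 (Oas3) to 105 FPKM (Lgals3bp). Of 17 matched, 11 were present, 5 were low and Oas3 was listed at 0 in the vector libraries. Isg15, a ubiquitin-like modifier and among the most strongly interferon-induced genes (Gene ID 101842719), was listed at 0.55 FPKM in vector 1, at 0.27 FPKM in STYK1 3 and at 0 in the other 4 libraries. Ifit2, a protein of the family that blocks translation of viral RNA (Gene ID 101823422), had 0.04, 0.04 and 0.09 FPKM in vector and 0.14, 0.09 and 0.09 FPKM in STYK1 libraries. The oligoadenylate synthetases, enzymes switched on by double-stranded RNA, were next to 0: Oas2 (Gene ID 101831783) was listed at 0.07 FPKM in vector 3 only, and Oas3 (Gene ID 101832045) at 0.04 FPKM in STYK1 2 only. Rsad2, the gene for the antiviral enzyme viperin (Gene ID 101836233), had 1.1, 0.75 and 0.52 FPKM in vector and 0.44, 0.73 and 0.27 FPKM in STYK1 libraries, with overlapping groups. Dtx3l, a ubiquitin ligase that partners Parp9 (Gene ID 101838933), had 0.65, 1.13 and 0.43 FPKM in vector and 0.95, 0.82 and 0.6 FPKM in STYK1 libraries. Isg15, Ifit2, Oas2, Oas3, Rsad2, Dtx3l, Zbp1 and Irf1 were the 8 matched members under the filter of the test (a mean of 1 FPKM in either group), so no fold or test is given for them.

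Other effectors were transcribed at levels of several FPKM or more, without any library being treated with interferon as far as the labels say. Lgals3bp, a secreted glycoprotein that binds galectins (Gene ID 101825995), was the most abundant member of all, at 133, 93.8 and 88.5 FPKM in vector and 74.95, 89.2 and 72.8 FPKM in STYK1 libraries. Vector 1 was far the highest, and STYK1 2 lay just above vector 3, so the groups overlapped. On the log2 scale Lgals3bp differed by -0.39 ± 0.16 (SE; unadjusted p of 0.0387), and by -0.21 ± 0.09 (SE) without vector 1 (limma, adjusted p = 0.469 and 0.526). Parp9, an ADP-ribosyltransferase family member (Gene ID 101838658), had 7.86, 10.8 and 8.61 FPKM against 11.6, 11.3 and 9.2 FPKM, with overlapping groups. Of the remaining present effectors, Trim25, the ubiquitin ligase that helps activate RIG-I, averaged 8.28 ± 2.17 FPKM in vector (SD, n = 3). The tetherin gene Bst2 and the antiviral GTPase gene Mx1 averaged 7.78 ± 0.607 and 5.91 ± 0.528 FPKM (SD, n = 3 each). Isg20, an RNA exonuclease, averaged 4.23 ± 2.40 FPKM, Parp14 averaged 3.12 ± 1.30 FPKM, and Usp18, the protease that removes ISG15 from proteins, averaged 2.89 ± 0.698 FPKM (SD, n = 3 each). Usp18 was therefore present in libraries where Isg15 itself was at 0.55 FPKM or at 0.

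Ifi35 had the smallest p of all members. This gene, which encodes an interferon-induced leucine zipper protein (Gene ID 101825915), had 13.5, 10.1 and 10.5 FPKM in vector and 7.46, 8.12 and 6.76 FPKM in STYK1 libraries. Every STYK1 library was below every vector library, and the vector mean was 1.53 times the STYK1 mean. The log2 difference of Ifi35 was -0.54 ± 0.14 (SE), with a 95% interval of -0.86 to -0.23 and an unadjusted p of 0.00412, and it did not pass over all genes (limma, adjusted p = 0.469). Without vector 1 it was -0.42 ± 0.11 (SE; limma, adjusted p = 0.439).

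Eif2ak2 and Adar were among the 6 of 11 tested effectors with a log2 difference above 0, while 5 were below 0. Eif2ak2, the gene for the kinase PKR that stops translation (Gene ID 101836026), had 7.07, 8.85 and 10.4 FPKM in vector and 11.9, 10.2 and 11.6 FPKM in STYK1 libraries, with STYK1 2 just below vector 3. The log2 difference of Eif2ak2 was 0.34 ± 0.15 (SE), with an unadjusted p of 0.0484, and 0.21 ± 0.11 (SE) without vector 1 (limma, adjusted p = 0.469 and 0.562). Adar, the gene for an RNA-editing enzyme that marks cellular double-stranded RNA as self (Gene ID 101842183), had 7.62, 7.97 and 7.72 FPKM in vector and 9.29, 9.38 and 8.72 FPKM in STYK1 libraries. All 3 STYK1 libraries were above all 3 vector libraries, with a log2 difference of 0.21 ± 0.10 (SE) that was 0.20 ± 0.10 (SE) without vector 1 (limma, adjusted p = 0.469 and 0.554).

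Among the antigen presentation genes B2m was far above the peptide transporter genes. B2m, the light chain of class I molecules (Gene ID 101843036), had 52.5, 53.9 and 51.1 FPKM in vector and 55.6, 48.2 and 49.7 FPKM in STYK1 libraries. Tap1, a subunit of the peptide transporter (Gene ID 106022611), had 2.83, 2.08 and 1.84 FPKM against 1.28, 2.4 and 1.39 FPKM. Tap2, its partner (Gene ID 101835124), had 1.71, 1.35 and 0.94 FPKM against 1.45, 1.34 and 1.00 FPKM, and vector 3 alone kept it from being counted as present. The groups overlapped for all 3 genes.

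**Figure D2:**
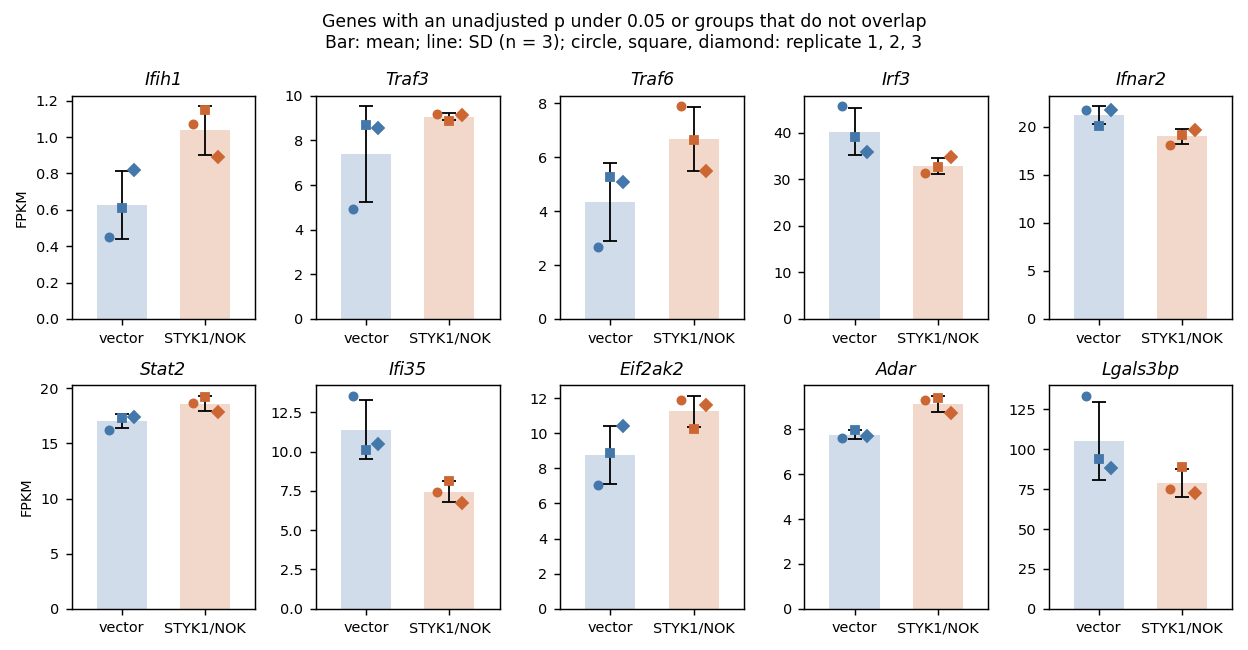
FPKM on the y axis of the 10 member genes with an unadjusted p under 0.05 or with groups that do not overlap, in vector and STYK1/NOK libraries, with bars at the mean, lines for the SD (n = 3) and a symbol for each replicate. For Ifi35, Irf3 and Ifnar2 the 3 STYK1/NOK libraries lie below the vector libraries, for Ifih1, Traf3, Traf6, Stat2 and Adar above them, and for Eif2ak2 and Lgals3bp the groups overlap.

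Over the list as a whole no member passed the comparison of STYK1/NOK with vector. Of the 42 members tested, 0 had an adjusted p under 0.05 (limma, smallest adjusted p = 0.469), as did 0 of all 11464 genes (0%). At an unadjusted p under 0.05 there were 5 members (11.9%), 2 higher in STYK1 libraries (Traf6 and Eif2ak2) and 3 lower (Irf3, Ifi35 and Lgals3bp), against 9.84% of all genes, 4.95% higher and 4.88% lower. The groups did not overlap for 8 members (19.0%), 5 higher and 3 lower, against 23.1% of all genes, 13.6% higher and 9.44% lower. Both shares were near those of all genes. The split by direction moved with the scaling: at an unadjusted p under 0.05 it was 3 higher and 1 lower with equal FPKM sums, and 1 higher and 3 lower with median centring. These were 9.52% of the members in both settings, against 12.9% of all genes with equal FPKM sums and 10.2% with median centring. The median log2 difference was 0.02 over the tested members and 0.01 over all genes, with 23 members above 0 and 19 below. On the log2(FPKM + 1) scale the 95% interval stayed within 1 unit in either direction for 39 of the 42. It reached past 1 unit for Traf6 (to 1.07), Parp14 (to 1.02) and Isg20 (to -1.06). For low members such as Ifih1, 1 unit on this scale is more than a 2-fold change in FPKM, so the fold in FPKM is not bounded in the same way. Without vector 1 there were 3 members at an unadjusted p under 0.05 (Irf3, Ifi35 and Lgals3bp, all lower, against 4.57% of all genes lower, 4.91% higher and 9.47% in all), without STYK1 2 and without STYK1 3 also 3 (5.01% and 6.18% of all genes), and without STYK1 1 only 1 (3.09%). Groups that do not overlap were then 9 members without vector 1, 5 higher and 4 lower, against 29.8% of all genes, 17.9% higher and 11.9% lower. In bulk RNA, fewer cells with a transcript and less of it per cell cannot be told apart.

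**Figure D3:**
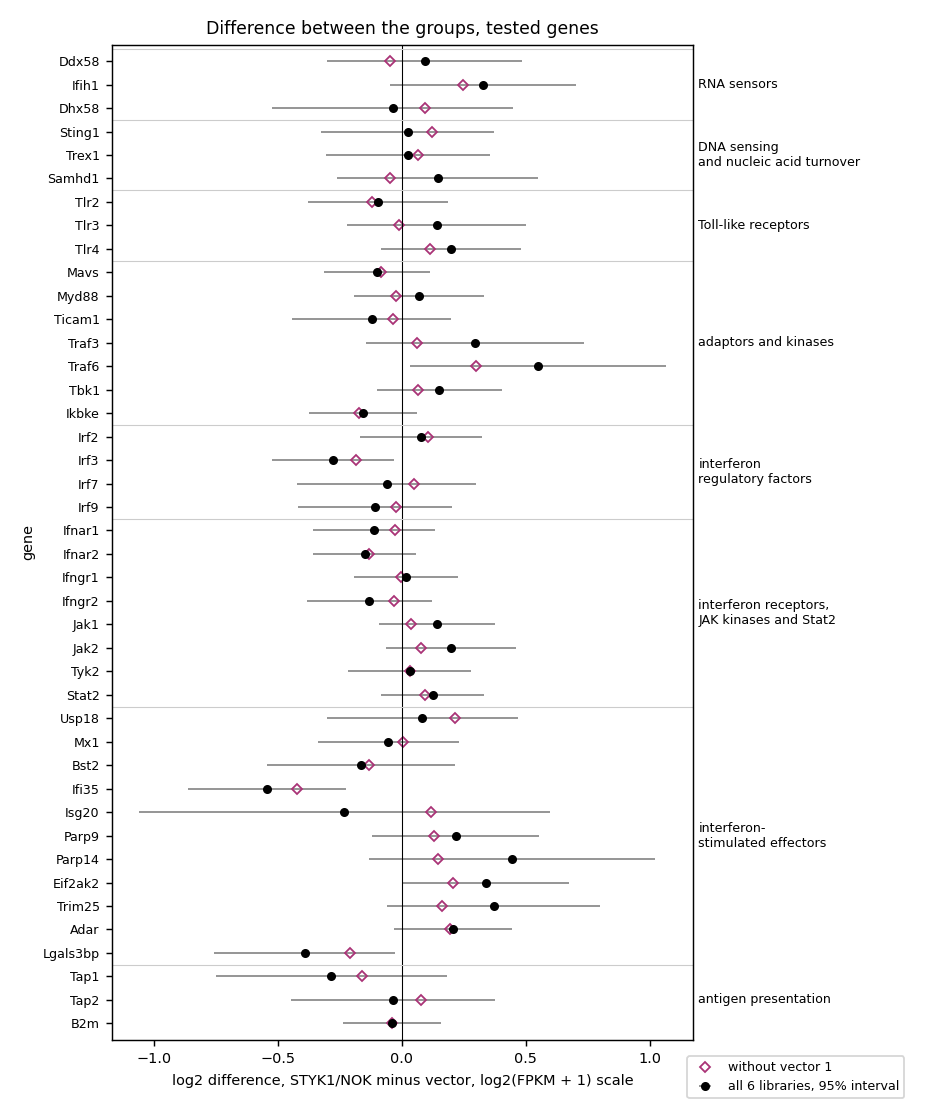
Log2 difference of STYK1/NOK minus vector on the log2(FPKM + 1) scale for the 42 tested members, grouped by role, with the 95% interval (grey) from all 6 libraries and the value without vector 1 (open diamonds). Most intervals span 0, Ifi35 lies lowest at -0.54 and Traf6 highest at 0.55, and without vector 1 Traf6 is at 0.30.

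By role, the members at an unadjusted p under 0.05 were 1 of 7 adaptors and kinases, 1 of 4 tested interferon regulatory factors and 3 of 11 tested effectors, against 9.84% of all genes. There were 0 among the 3 RNA sensors, the 3 tested genes of DNA sensing and nucleic acid turnover, the 3 Toll-like receptors, the 8 receptor and kinase genes and the 3 antigen presentation genes (limma, 0 also at an adjusted p under 0.05 in each). With 3 to 11 tested genes per role, these counts set no role apart. Of the 3 effectors, none of which passed over all genes, Eif2ak2 had the higher mean in STYK1 libraries, and Ifi35 and Lgals3bp the lower. The map of deviations by library shows how much of this spread lay in single libraries, since the median distance of a member from its mean over the 6 libraries reached 0.25 log2 units in vector 1, with 0.05 to 0.14 in the remaining 5 libraries.

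**Figure D4:**
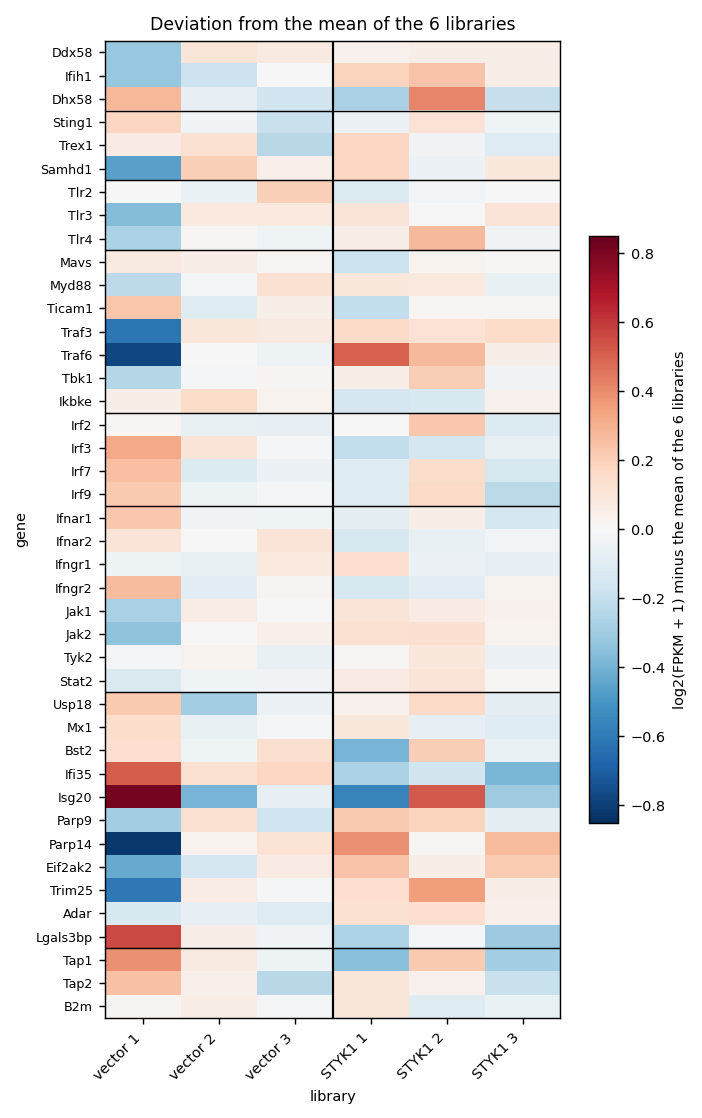
Deviation of each tested member (rows, grouped by role) in each library (columns) from its mean over the 6 libraries, in log2(FPKM + 1), red above and blue below. Vector 1 carries the strongest colours in both directions, with Traf6, Parp14, Traf3 and Trim25 low and Isg20, Lgals3bp and Ifi35 high.

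Other genes of the pathway, from a list of 129 outside the members, were read from the same fit. Of these, 90 were matched, 67 were present in the vector libraries and 71 were tested. None passed over all genes (limma, 0 of 71 at an adjusted p under 0.05), and 3 were higher and 3 lower in STYK1 libraries at an unadjusted p under 0.05, against the 4.95% and 4.88% of all genes. Among the higher was the ubiquitin ligase gene Trim56 (1.95, 2.27 and 2.54 FPKM in vector against 3.16, 3.73 and 3.12 FPKM in STYK1 libraries). The 3 lower were Ly96, the MD-2 partner of Tlr4 (4.94, 6.94 and 4.53 against 2.9, 1.7 and 4.07 FPKM), Ly6e (695, 626 and 599 against 557, 491 and 581 FPKM) and Tarbp2, a double-stranded RNA binding protein (34.99, 31.6 and 28.95 against 26.4, 26.2 and 28.4 FPKM). For Trim56 and these 3 genes the groups did not overlap. Of the 71 tested, this held for 11 higher and 5 lower in STYK1 libraries, against 13.6% and 9.44% of all genes.

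By sublist, 32 of 38 matched genes of sensing and signalling were present, 15 of 17 of JAK-STAT and its inhibitors, 20 of 32 interferon-stimulated genes and 0 of 3 interferon and cytokine genes. The last sublist had 12 names, and the 3 matched were Ifng, Il6 and Cxcl10. No type I interferon gene, such as Ifnb1, was therefore read. Ly96 had the largest difference of the 71 tested, -0.76 ± 0.24 (SE; limma, adjusted p = 0.469), while Tlr4 itself was at 0.20 ± 0.12 (SE). Of the cytokine genes, Ifng was listed at 0 in all 3 vector libraries, Il6 had 0.19, 0.19 and 0.57 FPKM, and Cxcl10, a chemokine gene induced by interferon, had 0.57, 0.38 and 1.14 FPKM in vector and 0.77, 0.98 and 1.31 FPKM in STYK1 libraries. Tnfsf10, an interferon-induced death ligand, was also at 0 in all 3 vector libraries.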

How the data were processed

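Total RNA (1 ug, Trizol) went into Illumina TruSeq libraries, per the labels' protocols. The authors deposited FPKM, 1 value for each gene in each library, per the file headers. The submitters' processing notes list Bowtie 0.12.2 and the mouse builds mm8 and mm9 without a role, while the rows carry NCBI Gene IDs of hamster genes, so the annotation behind the values is not settled. The FPKM method, any use of strand and the handling of reads common to paralogs (such as Mx, Oas and Ifit genes) are not stated.

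Of 16078 IDs, 15049 matched the RefSeq gene table of BCM_Maur_2.0, used for names only. The 11464 genes averaging 1 FPKM or more in either group were tested on log2(FPKM + 1), a scale that understates changes of low genes, with limma-trend (limma 3.58.1, R 4.3.3, robust empirical Bayes) and Benjamini-Hochberg adjustment over all of them. Ratios named in the text are of mean FPKM. The script was tested on simulated data. Whole steps were looked for in 466 genes at 0 in 2 or more libraries whose smallest value above 0 was at least 0.2 FPKM. Values at or next to that smallest value were left out. Of the 306 values used, 43.1% lay within 0.1 of a whole multiple of the gene's smallest value above 0. The share to be found without whole fragments was not computed, so whether low values are whole fragments is not settled. Depth is therefore taken as unknown and no counting interval is given. Members and lists were chosen with earlier results of these data known. Named genes were all members, with values in every library for the 3 highest per role, those at an unadjusted p under 0.05 or with groups that do not overlap, and those not present; in other lists, up to 4 genes of smallest p or at 0, of which some are not reported here. Alternatives changed the pseudocount, filter, scaling, weights, empirical Bayes, replicate block and libraries used.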

Additional observations from a re-analysis of the deposited data

How the results depend on the processing

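In each of the 16 alternative fits 0 of the members tested had an adjusted p under 0.05 (limma). The 10 members named with a difference and Styk1 kept their sign in these fits, except that Ifih1 was under the filter without STYK1 2 and so was read in 15. Over all genes, 24 passed with quality weights, and 0 to 2 when 1 library was left out (2 without vector 3, STYK1 1 or STYK1 3). At an unadjusted p under 0.05 the members numbered 5 as reported, 3 without a filter on low values (6.0% against 7.49% of all genes), 2 after quantile normalization (4.76% against 9.11%), 8 with quality weights (19.0% against 20.6%), and 1 to 6 when 1 library was left out (2.38% to 14.3% against 3.09% to 14.9%). Members whose groups did not overlap numbered 8 as reported (19.0% against 23.1% of all genes) and 9 to 17 when 1 library was left out. With equal FPKM sums they were 11, 9 higher and 2 lower (26.2% against 28.4%). Without vector 1 and STYK1 1 in turn they were 9 and 10 (21.4% and 23.8%, against 29.8% and 28.0%). They were 14 and 13 without vector 2 and vector 3 (33.3% and 31.0%, against 34.5% and 35.6% of all genes), and 17 and 16 without STYK1 2 and STYK1 3 (41.5% and 38.1%, against 38.0% and 34.2%), where fewer libraries are compared. With the replicate number as a block, 2 members had an unadjusted p under 0.05 (4.76% against 7.25%) and 0 an adjusted one; same-numbered libraries deviated with correlations of -0.27, -0.16 and 0.11, so the numbers were not taken as pairs. With equal FPKM sums the median log2 difference was 0.12 over all genes (0.01 as reported) and 0.12 over the members (0.02). At an unadjusted p under 0.05 there were then 3 members higher and 1 lower (9.52% against 12.9% of all genes). After median centring there were 1 and 3 (9.52% against 10.2%). Present members numbered 36 at a level of 2 FPKM and 42 at 0.5 FPKM. The causes of these changes were not tested. Levels near 0 are limited by an unknown depth.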

Other observations

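Isg20, singled out after its values were seen, had 6.96, 2.43 and 3.3 FPKM in vector 1, 2 and 3 and 2.05, 5.5 and 2.66 FPKM in STYK1 1, 2 and 3. Vector 1 and STYK1 2 were thus its 2 highest libraries, 1 in each group. The same 2 libraries were the highest for 10 of the 42 tested members (23.8%), against 15.6% of all tested genes, and these 10 were Dhx58, Sting1, Irf2, Irf7, Irf9, Ifnar1, Usp18, Bst2, Isg20 and Tap1. The 2 were the lowest for 3 members (7.14%), against 10.2% of all tested genes. This count was made after the data were seen.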
